A study of Mus musculus with 13 samples.

Results

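The genes described here are the 10 that link the small GTPase Rap1 and its effector RAPL to integrin adhesion in lymphocytes. They were chosen by symbol from the deposited count table, and all 10 were found among its 26720 genes: Rap1a, Rap1b, Rassf5, Tln1, Fermt3, Itgal, Itgb2, Itga4, Itgb1 and Itgb7. RNA was read in 13 libraries of CD4+YFP+ cells from the spleen of mice of around 4 to 5 weeks, where YFP marks Foxp3 expression and so regulatory T (Treg) cells. The 7 control libraries came from Foxp3YFPCre mice. The 6 deleted libraries came from Foxp3YFPCre/+Stk3∆/∆Stk4∆/∆ mice, in which Cre made under Foxp3 control removes Stk3 and Stk4, the genes of the kinases MST2 and MST1. Both groups carry the Foxp3-driven YFP-Cre allele, marked heterozygous in the deleted group and with no zygosity given for the control group. Any effect of a difference in this zygosity cannot be told apart from that of the deletion. Since the labels do not tie libraries to mice, p-values reflect the spread among libraries, which may be technical in part.

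Integrins are paired alpha and beta chains that hold T cells to other cells and to matrix. Antigen receptor or chemokine signals load Rap1 with GTP. Rap1 then acts through RAPL, and through talin and kindlin bound to the beta chain tail, to switch integrins to their high-affinity form. RAPL is encoded by Rassf5 and binds MST1, which is known to act with it in LFA-1 adhesion and lymphocyte traffic. LFA-1 is made of the Itgal and Itgb2 chains and binds ICAM-1. The alpha4 chain (Itga4) pairs with beta1 (Itgb1) as VLA-4, a receptor for VCAM-1 and fibronectin, or with beta7 (Itgb7), as a receptor for MAdCAM-1 on gut vessels.

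Several library measures differed between the groups. Total counts were 2671660 to 4569655 in deleted and 3705511 to 8323919 in control libraries (exact permutation, two-sided, p = 0.00816, n = 6 and 7). Genes of olfactory and vomeronasal receptors, proteins of sensory neurons, took 0.761 to 1.89% of counts in deleted and 0.371 to 1.07% in control libraries (exact permutation, two-sided, p = 0.00641, n = 6 and 7), called the receptor share here. Levels are given as TMM-scaled counts per 1e6 counts (CPM). All 8 Treg and CD4 T cell markers were read in every library, with a summed level of 1027 to 2218 CPM in deleted and 1586 to 6296 CPM in control libraries. Each of the 8 had a lower mean in the deleted group, by the smallest proportion for Foxp3 (44.0 against 54.1 CPM). The largest was for Ctla4 (87.4 against 257 CPM). All 6 B cell markers were read, and summed to 138 to 207 CPM in deleted and 363 to 1175 CPM in control libraries, mostly from Ighm. The 7 myeloid markers summed to 76.9 to 109 CPM in deleted and 48.8 to 130 CPM in control libraries, and the 5 platelet markers to 35.0 to 69.6 CPM and 23.8 to 58.5 CPM. CD8 T cell, NK and erythroid markers summed to at most 62.6 CPM in any library, and S100a8, Ppbp, Gp1bb, Hba-a1 and Hbb-bs were at 0 in some libraries. The part of the other cell types in the results was not tested. In bulk RNA, fewer cells of a type and less RNA per cell cannot be told apart. Counts over the whole of Stk3 (26.8 to 44.2 CPM in deleted, 24.8 to 47.9 CPM in control libraries) and Stk4 (57.9 to 394 CPM and 136 to 291 CPM) cannot reveal a missing exon and so check nothing about the labels. Deleted replicate 1 held the highest Stk4 value.

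Deleted and control libraries were compared for the adhesion genes around the MST1 partner RAPL. Loss of both kinases is known here from the genotype label alone. The beta1 integrin gene Itgb1 fell 5.30-fold, and the genes of LFA-1 (Itgal and Itgb2), of the beta7 chain (Itgb7) and of the integrin activator kindlin-3 (Fermt3) fell between 1.87-fold and 2.35-fold. Rassf5, Rap1a, Itga4 and Tln1 were between 1.41-fold and 1.68-fold lower and did not pass the test, and Rap1b was 1.17-fold higher and did not pass it. All 10 genes passed the filter on low counts. By edgeR's quasi-likelihood test with Benjamini-Hochberg adjustment over 24068 genes, 5 of the 10 were lower and 0 higher, against 8.52% of all genes called lower and 1.66% called higher. At an unadjusted p under 0.05 the 10 also held 0 higher, and DESeq2 and limma-voom called 0 higher. Among the 5204 genes with a mean of at least 50 CPM, a class that holds all 10, 23.8% were called lower. The median log2 fold change of the 10 genes was -0.83, beside 0.06 over all genes tested and -0.38 over the genes of at least 50 mean CPM.

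Itgb1 (gene number 16412; GRCm38 chromosome 8, 128685654 to 128733579) encodes the beta1 chain, the shared partner of many alpha chains. Its counts were 175 to 325 in deleted and 552 to 3866 in control libraries. In the deleted libraries it was at 42.2, 49.9, 62.5, 65.8, 71.0 and 78.5 CPM. In the control libraries it was at 131, 232, 240, 271, 274, 451 and 691 CPM. Every deleted library therefore lay below every control library, a separation that 1.44% of all genes tested showed in that direction, and 3.31% of genes of at least 50 mean CPM. The log2 fold change was -2.41 (SE 0.32, adjusted p = 8.59e-05 by edgeR's quasi-likelihood test), lower than all but 0.327% of genes of at least 50 mean CPM. Itgb1 was the only one of the 10 genes called in all 25 fits that were run. With any 1 library left out, its log2 fold change lay between -2.54 and -2.11. The authors' deposited table gave Itgb1 a mean log2 fold change of -2.35.

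The alpha4 chain and its other partner differed less between the groups. Itga4 (gene number 16401; chromosome 2, 79255426 to 79333114) ran from 114 over a median of 181 to 227 CPM in deleted and from 100 over 293 to 378 CPM in control libraries. The deleted values all fell inside the control range, since control replicates 1 and 2 were low. The log2 fold change was -0.57 (SE 0.29, adjusted p = 0.225 by edgeR). Itgb7 (gene number 16421; chromosome 15, 102215994 to 102233405), the beta chain of gut-homing integrins, ran from 272 over 416 to 530 CPM in deleted and from 285 over 708 to 1322 CPM in control libraries. Of the deleted libraries, 1 lay below the lowest control library. Its log2 fold change was -1.001 (SE 0.32, adjusted p = 0.0469 by edgeR).

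Both LFA-1 genes were lower in the deleted libraries. Itgal (gene number 16408; chromosome 7, 127296139 to 127335137) encodes the alphaL chain, also called CD11a. It ran from 98.5 over 202 to 231 CPM in deleted and from 213 over 438 to 662 CPM in control libraries, and 3 of 6 deleted libraries lay below the lowest control library. Its log2 fold change was -1.23 (SE 0.30, adjusted p = 0.0114 by edgeR). Itgb2 (gene number 16414; chromosome 10, 77530329 to 77565708) encodes beta2, or CD18, which also pairs with the alpha chains of myeloid integrins. It ran from 154 over 198 to 305 CPM in deleted and from 181 over 353 to 626 CPM in control libraries. The groups overlapped, with 1 deleted library below the control range, and the log2 fold change was -0.90 (SE 0.29, adjusted p = 0.0485 by edgeR). The calls of Itgb2 and Itgb7 lay close to the threshold, and each was kept in 3 of the 13 fits that left out 1 library. The log2 fold change lay between -1.04 and -0.75 for Itgb2 and between -1.14 and -0.83 for Itgb7 over these fits. Itgb2 kept it without control replicate 1, control replicate 2 or deleted replicate 4, and Itgb7 without control replicate 1, control replicate 2 or deleted replicate 1. In the other fits the adjusted p by edgeR went up to 0.123 for Itgb2 and 0.125 for Itgb7.

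Of the genes of 2 proteins that bind beta chain tails, that of kindlin-3 fell and that of talin-1 did not pass the test. Fermt3 (gene number 108101; chromosome 19, 6998958 to 7019469) encodes kindlin-3, the kindlin of blood cells. It ran from 109 over 131 to 153 CPM in deleted and from 151 over 250 to 469 CPM in control libraries. Of the deleted libraries 5 lay below the control range, and replicate 2 lay just inside it. The log2 fold change was -1.12 (SE 0.26, adjusted p = 0.00985 by edgeR). Tln1 (gene number 21894; chromosome 4, 43531513 to 43562583) encodes talin-1, which ties the integrin tail to actin. It ran from 197 over 231 to 469 CPM in deleted and from 196 over 416 to 512 CPM in control libraries. Deleted replicate 1 stood alone at 469 CPM, while the other 5 deleted libraries lay low in the control range. The log2 fold change of Tln1 was -0.50 (SE 0.27, adjusted p = 0.252 by edgeR), and -0.74 without deleted replicate 1 (adjusted p = 0.0643).

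Upstream of the integrins, the values of both GTPase genes and of Rassf5 overlapped between the groups. Rap1a (gene number 109905; chromosome 3, 105727260 to 105801394) ran from 24.3 over 53.1 to 62.6 CPM in deleted and from 23.8 over 71.6 to 144 CPM in control libraries, so that every deleted value lay inside the control range. Its log2 fold change was -0.66 (SE 0.34, adjusted p = 0.222 by edgeR). Rap1b (gene number 215449; chromosome 10, 117814597 to 117845974), which encodes a closely related GTPase, ran from 111 over 207 to 294 CPM in deleted and from 70.0 over 167 to 365 CPM in control libraries. Its median was the only one of the 10 that was higher in the deleted group, by 0.22 as log2 fold change (SE 0.31, adjusted p = 0.683 by edgeR). Rassf5 (gene number 54354; chromosome 1, 131176410 to 131245178) ran from 109 over 183 to 232 CPM in deleted and from 95.2 over 282 to 478 CPM in control libraries. All 6 deleted values lay inside the control range. The log2 fold change was -0.75 (SE 0.30, adjusted p = 0.113 by edgeR). Without control replicate 2, the lowest control library of this gene, the log2 fold change was -0.90 (adjusted p = 0.0159 by edgeR). Rassf5 encodes RAPL and a longer protein from a start farther upstream, and counts per gene do not separate them. Reads from the overlapping ends of Rassf5 and Eif2d, Itga4 and Cerkl, or Fermt3 and Trpt1 could have been counted to either gene, as the strand setting is not given in the sources used here.

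**Figure D1:**
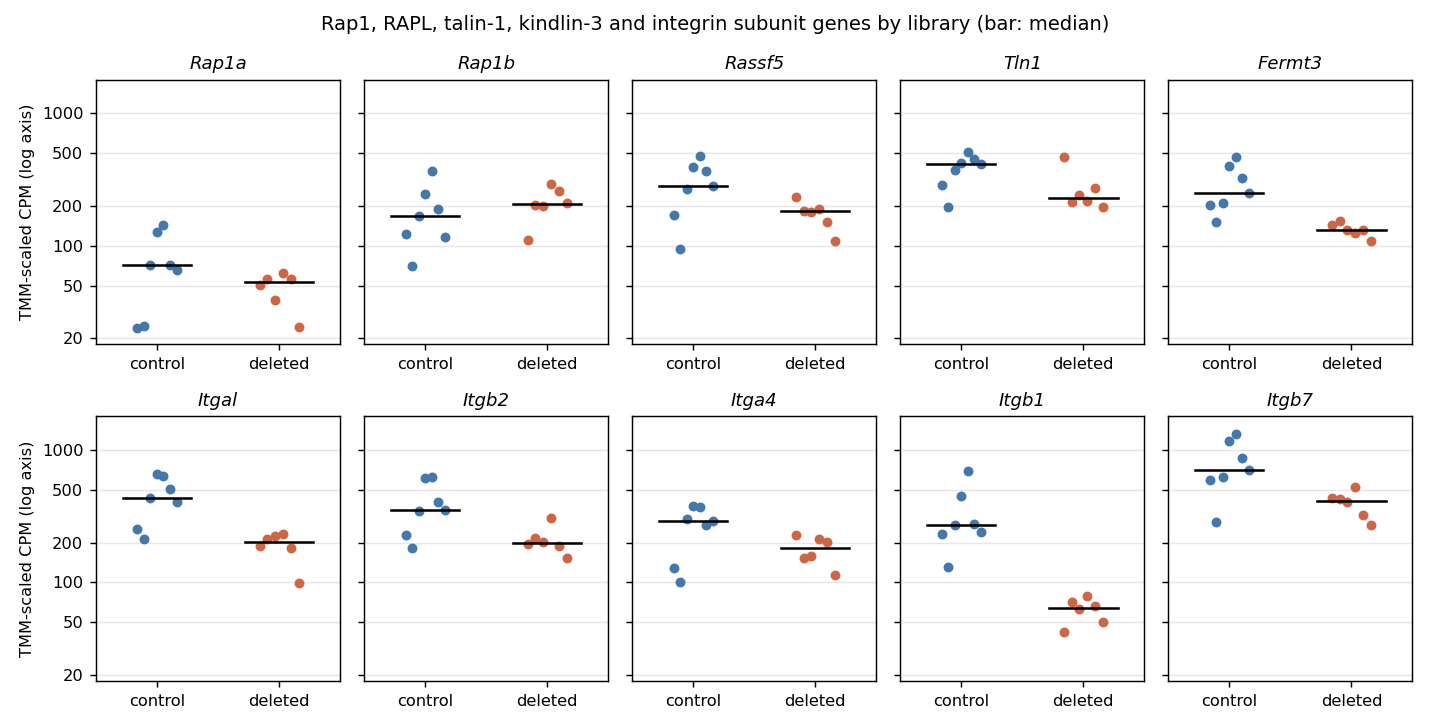
CPM of each of the 10 genes (vertical log axis) in the 7 control libraries (blue) and 6 deleted libraries (orange), 1 point per library in the order of replicate numbers, with a bar at the median. The Itgb1 groups do not overlap (42.2 to 78.5 against 131 to 691 CPM), and Rap1b has the higher median in the deleted group (207 against 167 CPM).

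The start regions of 4 of the genes are shown because they span the range of the results: Itgb1 and Fermt3 fell, Rap1b had the opposite sign, and the Rassf5 start in the table lies inside the gene, 44993 bases from its outer end. Each runs from 250 bases before to 50 after the start, 5′ to 3′, from RefSeq on GRCm38.p6, which matched 7 of the 10 genes. Capitals mark matches on either strand to the NF-kB consensus, the forkhead motif TGTTTAC, the RUNX motif TGTGGT or the ETS motif CGGAAG, which did not overlap one another.
Itgb1, chr8:128685404-128685703, plus strand: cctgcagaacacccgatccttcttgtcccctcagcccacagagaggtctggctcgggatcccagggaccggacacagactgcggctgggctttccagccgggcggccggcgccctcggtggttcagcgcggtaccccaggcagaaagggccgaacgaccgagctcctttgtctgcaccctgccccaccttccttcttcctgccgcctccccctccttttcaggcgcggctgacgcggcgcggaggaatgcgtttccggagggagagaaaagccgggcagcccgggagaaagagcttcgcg
Fermt3, chr19:7019420-7019719, minus strand: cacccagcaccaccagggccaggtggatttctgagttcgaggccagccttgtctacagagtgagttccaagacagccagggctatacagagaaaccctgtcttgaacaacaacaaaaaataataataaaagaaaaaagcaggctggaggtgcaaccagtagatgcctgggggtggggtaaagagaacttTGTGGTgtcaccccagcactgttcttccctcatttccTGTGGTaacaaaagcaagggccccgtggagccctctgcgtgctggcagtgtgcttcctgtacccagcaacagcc
Rap1b, chr10:117845925-117846224, minus strand: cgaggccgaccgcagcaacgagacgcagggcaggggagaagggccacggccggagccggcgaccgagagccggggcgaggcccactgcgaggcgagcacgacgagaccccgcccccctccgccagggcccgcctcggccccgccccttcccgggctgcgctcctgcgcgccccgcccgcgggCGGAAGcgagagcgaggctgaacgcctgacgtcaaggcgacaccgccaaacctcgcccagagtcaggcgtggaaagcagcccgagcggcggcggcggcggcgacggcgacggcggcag
Rassf5, chr1:131200136-131200435, minus strand: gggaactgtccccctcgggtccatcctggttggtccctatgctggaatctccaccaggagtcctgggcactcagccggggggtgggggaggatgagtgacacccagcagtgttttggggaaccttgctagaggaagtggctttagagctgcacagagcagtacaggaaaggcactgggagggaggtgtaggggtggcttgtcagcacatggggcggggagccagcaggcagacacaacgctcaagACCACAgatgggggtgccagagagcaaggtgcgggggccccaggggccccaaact
The NF-kB consensus was in 0 of the 7 windows and in 4.51% of all 32851 windows of this length, and the forkhead motif in 0 of 7 and in 3.65%. RUNX letters were in 3 of 7 (Fermt3 with 2 matches, Rassf5 and Itga4) and in 16.8% of all. ETS letters were in 2 of 7 (Rap1b and Tln1) and in 16.9% of all. These are matches of letters in short windows and were not measured as binding.

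The libraries at the extremes were mostly the same for the 10 genes. Among the controls, replicate 5, with the smallest receptor share (0.371%), was the highest library for 8 of the 10 genes, and replicate 2, with the largest share (1.07%), was the lowest for 9. Among the deleted libraries, replicate 7, with the largest share (1.89%), was the lowest for 8 of the 10. Deleted replicate 1, with the smallest share of its group (0.761%), was the highest for 3 genes and the lowest for Rap1b and Itgb1. Deleted replicate 4, at a middling share of 1.14%, was the highest for 6. The libraries of largest share were thus the lowest for most of these genes in both groups, while the deleted library of smallest share was not the highest for most of them.

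The fold changes were also taken in fits that treat the share or the scaling in other ways. In a fit on the 5204 genes of at least 50 mean CPM alone, where their median log2 fold change was 0.02, 4 of the 10 genes were lower and 1 higher, against 15.6% and 9.38% of the genes in that fit. Itgb1 (-1.91), Itgal (-0.79), Fermt3 (-0.67) and Itgb7 (-0.54) fell there, and Rap1b rose by 0.73 (SE 0.24, adjusted p = 0.0324 by edgeR). Among the 9 libraries (5 deleted, 4 control) whose receptor share was 0.7 to 1.4%, only Itgb1 passed, at -1.77 (SE 0.25, adjusted p = 0.000734 by edgeR), where 0.418% of genes were called lower. In that set 4 deleted libraries, at 1.14 to 1.36%, still lay above every control library. With the log2 receptor share as a covariate, again only Itgb1 passed, at -1.41 (SE 0.30, adjusted p = 0.0268 by edgeR), where 0.233% of genes were called lower. The log2 receptor share had a correlation of 0.69 with genotype, so this fit cannot fully separate the share from the deletion. With that covariate Itgal was at -0.33, Fermt3 at -0.32, Itgb7 at -0.01 and Itgb2 at 0.02, none past the test. Scaling by DESeq2 size factors, by the upper quartile or by the genes of at least 50 mean CPM each left 3 of the 10 lower (Itgb1, Itgal and Fermt3), beside 7.7%, 5.02% and 2.9% of all genes. DESeq2 called 5 lower, beside 10.9% of all genes, and limma-voom with sample weights 7, beside 12.2%. Of the 5204 genes of at least 50 mean CPM, those 3 scalings called 1125, 831 and 565 lower. DESeq2 called 1500 of the 5204 lower and limma-voom 1748. Rap1b was at 0.84 (SE 0.29, adjusted p = 0.258) in the libraries of similar share and at 1.14 (SE 0.37, adjusted p = 0.248) with the covariate, neither past edgeR's test.

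**Figure D2:**
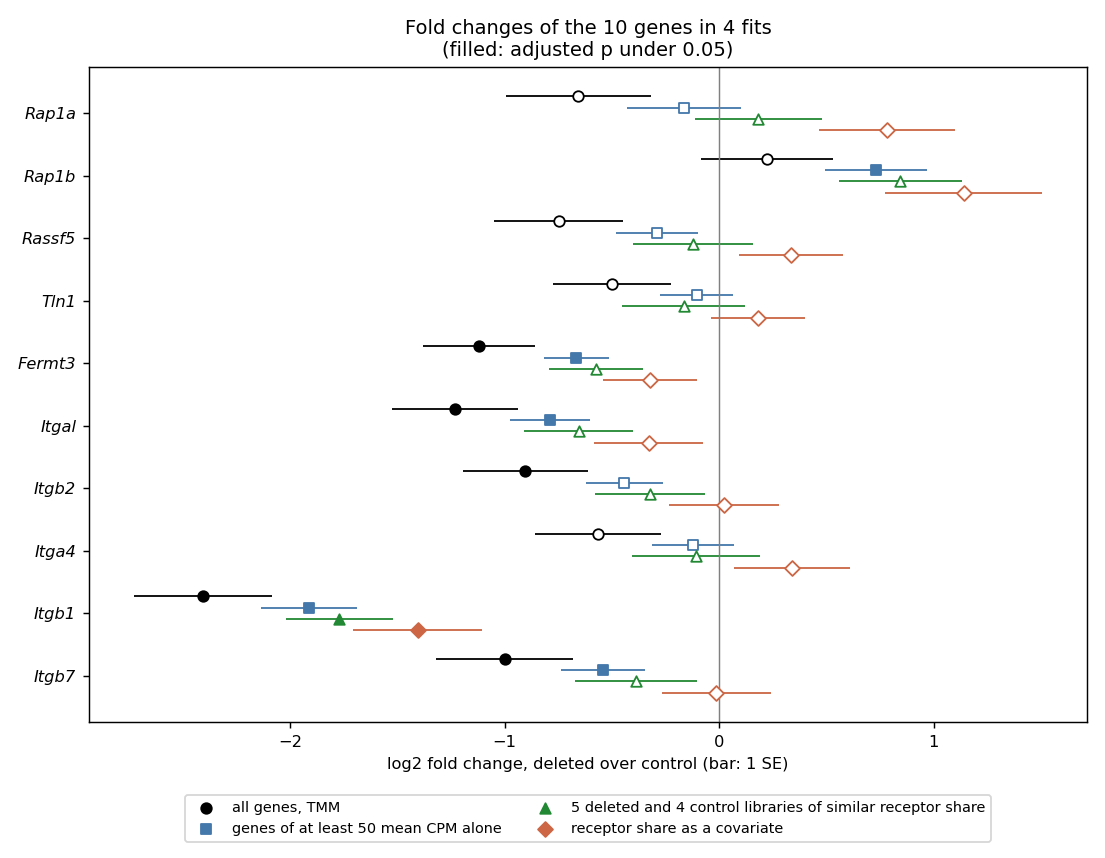
Log2 fold change of deleted over control (horizontal axis, bars of 1 SE) for each of the 10 genes in 4 edgeR fits, with filled symbols where the adjusted p was under 0.05. Itgb1 is filled in all 4 fits (-2.41, -1.91, -1.77 and -1.41), while Itgal, Fermt3 and Itgb7 are filled in the fits on all genes and on genes of at least 50 mean CPM.

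Ratios of partner genes within a library do not depend on how libraries are scaled. For the 8 pairs, chosen by partnership with earlier results of these data known, two-sided exact permutation tests over 1716 assignments of libraries were adjusted over the 8. How many of all gene pairs would pass this test or separate the groups was not computed. The ratios are made of the same counts as the fold changes above and are not independent of them. The count ratio of Itgb1 to Itgb7, the alternative beta partners of alpha4, had a log2 value of -3.36 to -2.29 in deleted and -1.67 to -0.94 in control libraries. The groups did not overlap, and the difference was -1.37 (SE 0.18, exact permutation adjusted p = 0.00155, n = 6 and 7). The log2 ratio of Itga4 to Itgb1 was 1.11 to 2.42 in deleted and -0.89 to 0.29 in control libraries, a difference of 1.80 (SE 0.26, exact permutation adjusted p = 0.00155, n = 6 and 7). Against Itgb7, Itga4 differed less, by 0.43 (SE 0.19, exact permutation adjusted p = 0.0437, n = 6 and 7), with overlapping groups.

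In LFA-1, the log2 ratio of Itgal to Itgb2 was -0.64 to 0.15 in deleted and 0.03 to 0.35 in control libraries, with 5 of 6 deleted libraries below the control range. The difference was -0.37 (SE 0.13, exact permutation adjusted p = 0.00583, n = 6 and 7). Rassf5 was higher relative to Itgal: the log2 ratio of Rassf5 to Itgal was -0.32 to 0.29 in deleted and -1.16 to -0.42 in control libraries, without overlap, a difference of 0.55 (SE 0.14, exact permutation adjusted p = 0.00155, n = 6 and 7). Rassf5 was lower relative to Rap1b, with a difference of -0.96 in the log2 ratio (SE 0.32, exact permutation adjusted p = 0.0186, n = 6 and 7). There, 5 of 6 deleted libraries lay below the control range and deleted replicate 1 lay at 1.06, inside it.

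The log2 ratio of Rap1b to Rap1a was 1.14 to 3.11 in deleted and 0.82 to 2.36 in control libraries, a difference of 0.78 (SE 0.32, exact permutation adjusted p = 0.0353, n = 6 and 7), with 2 of 6 deleted libraries above the control range. That of talin-1 to kindlin-3, Tln1 to Fermt3, differed by 0.52 (SE 0.20, exact permutation adjusted p = 0.0218, n = 6 and 7), with 4 of 6 deleted libraries above the control range. In the 9 libraries of similar receptor share, the pairs of Itgb1 with Itgb7 (-1.42), of Itga4 with Itgb1 (1.79), of Rassf5 with Itgal (0.58) and of Itgal with Itgb2 (-0.31) kept their calls. The other 4 pairs had the same sign there and did not pass. The calls of Itga4 to Itgb7 and of Rap1b to Rap1a were each kept in 3 of the 13 sets that left out 1 library, with exact permutation adjusted p of up to 0.105 and 0.072 in the others.

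**Figure D3:**
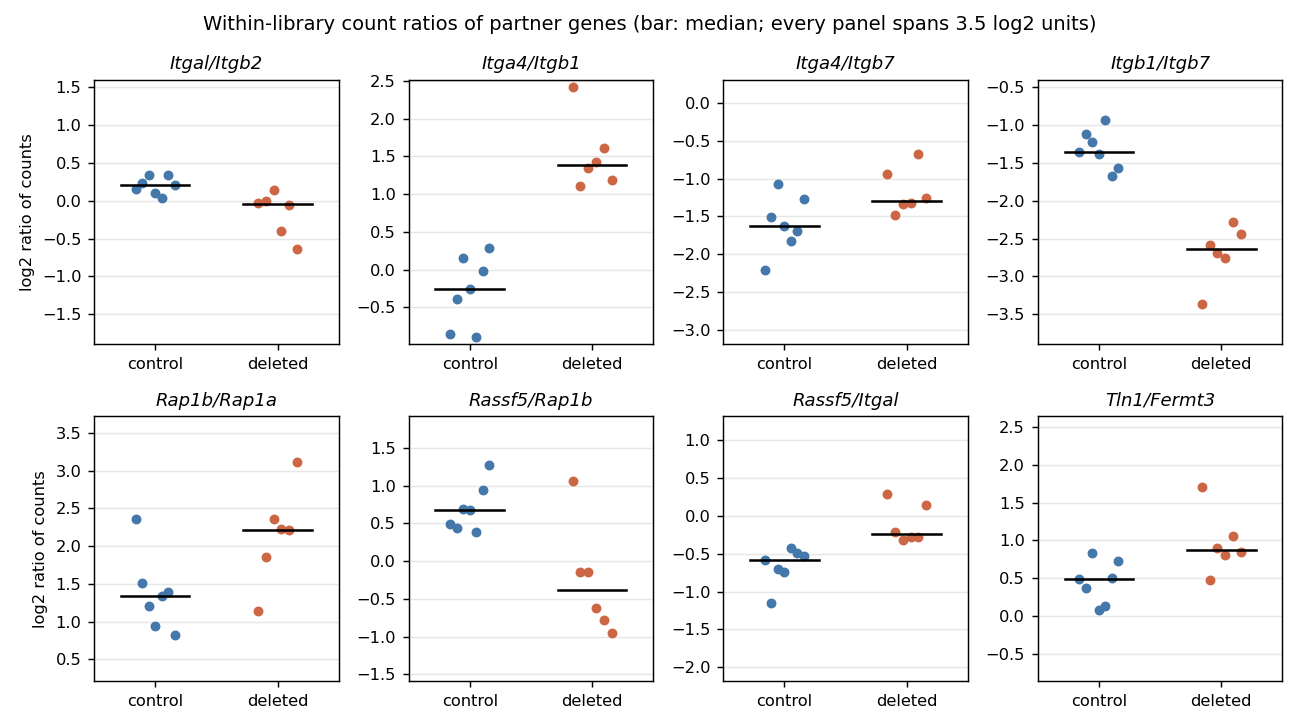
Log2 of the ratio of counts of 2 genes in the same library (vertical axis, each panel spanning 3.5 log2 units) for 8 partner pairs, in control (blue) and deleted (orange) libraries with a bar at the median. The groups do not overlap for Itgb1/Itgb7 (-3.36 to -2.29 against -1.67 to -0.94), Itga4/Itgb1 and Rassf5/Itgal. The share of all gene pairs without overlap was not computed.

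T cell genes themselves were lower in the deleted libraries, so the 10 genes were also set against them. The antigen receptor genes Cd3d (-1.12), Cd3e (-1.35), Cd3g (-1.26) and the co-receptor gene Cd4 (-1.01) each fell by edgeR's test over all genes, and 0 of the 4 passed once the receptor share was a covariate. Per summed count of these 4 genes in the same library, Itgb1 was at 0.0284 to 0.0786 in deleted and 0.102 to 0.158 in control libraries, still without overlap. Itgal (medians of 0.177 in deleted and 0.191 in control libraries) and Fermt3 (0.135 and 0.121) overlapped between the groups on this scale. So did Itgb7, with medians of 0.379 and 0.312. Rap1b had medians of 0.215 and 0.0765, with 5 of 6 deleted libraries above the control range, and deleted replicate 1, at 0.0750, inside it. Rassf5 was at 0.138 to 0.196 in deleted and 0.0906 to 0.136 in control libraries, and all 6 deleted libraries lay above the control range. Itga4 lay above it in 5 of 6 deleted libraries, and Rap1a, Itgb2 and Tln1 in 4. This scale was chosen after the values had been seen and is given without a test. How many of all genes lie outside the control range on it was not computed. The 4 summed genes fell by 1.01 to 1.35 on the log2 scale, beside a median of 0.06 over all genes tested. A gene with no change against all genes would therefore lie higher here, and a higher value is not particular to the 10. The difference of mean log2 values on this scale was below 0 for Itgb1 (-1.16) and Itgal (-0.08). It was above 0 for the other 8 genes, among them Itgb2 (0.29), Itgb7 (0.21) and Fermt3 (0.07), which were called lower against all genes.

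**Figure D4:**
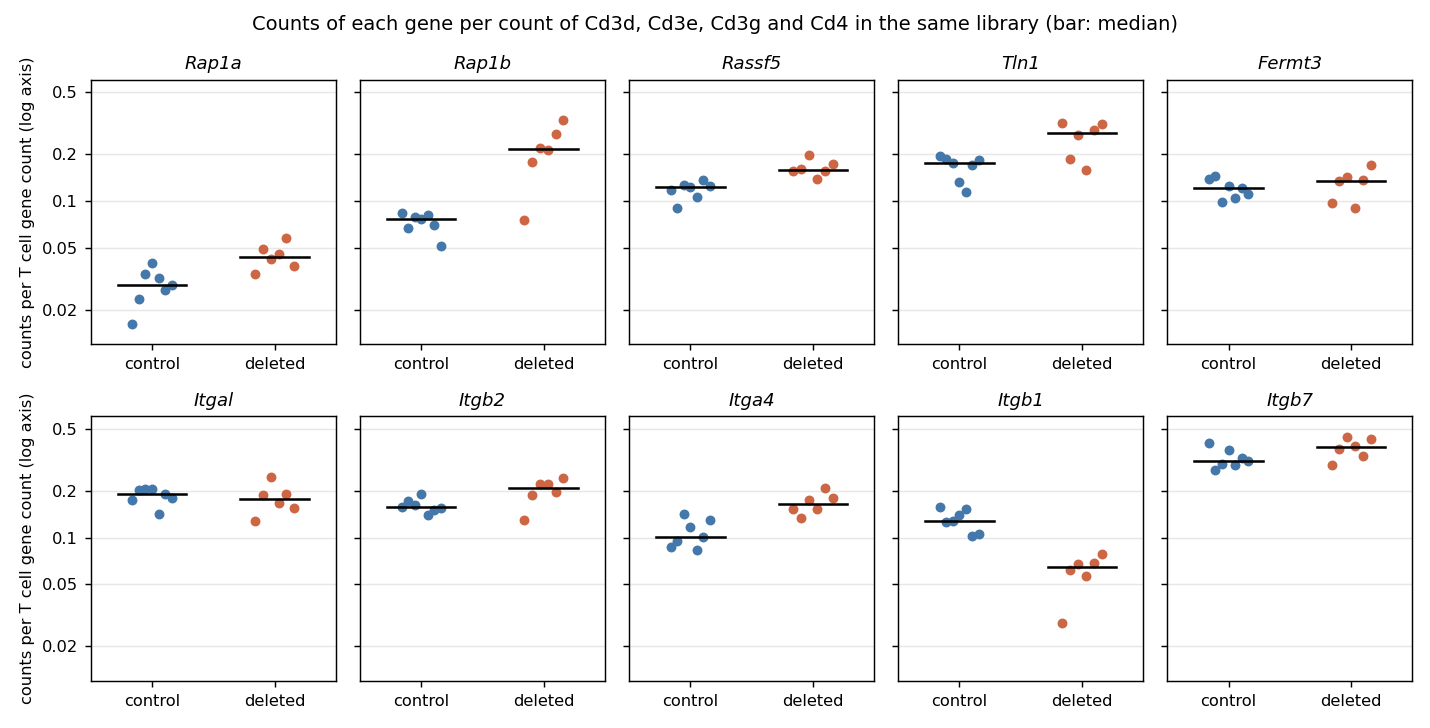
Counts of each of the 10 genes per summed count of Cd3d, Cd3e, Cd3g and Cd4 in the same library (vertical log axis), in control (blue) and deleted (orange) libraries with a bar at the median. Itgb1 stays lower in all 6 deleted libraries (0.0284 to 0.0786 against 0.102 to 0.158), and Rassf5 lies higher in all 6 (0.138 to 0.196 against 0.0906 to 0.136). The summed T cell genes were themselves lower in the deleted libraries, and the share of all genes that lie higher on this scale was not computed.

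The genes around this pathway were read from lists drawn up by role, and counts of genes that fell stand beside 8.52% of all genes and 23.8% of genes of at least 50 mean CPM. Of 11 Rap1 exchange factor and adaptor genes 0 passed the test (median log2 fold change 0.24), 2 being higher and 1 lower at an unadjusted p under 0.05 by edgeR. DESeq2 called 2 of them higher, beside 3.08% of all genes. By limma-voom 2 were higher, beside 4.88% of all genes, and 1 lower, beside 12.2%. Of 7 genes of Rap1 GTPase-activating proteins 0 passed (median 0.00), 0 at an unadjusted p by edgeR and 0 with DESeq2 or limma-voom. The exchange factor genes Rapgef2 (0.57, adjusted p = 0.0575 by edgeR), Rasgrp3 (0.68, adjusted p = 0.0623) and Rapgef1 (-0.56, adjusted p = 0.0965) and the activating protein gene Rasa3 (-0.54, adjusted p = 0.206) had the smallest p in their lists. Of 13 Rap1 effector and inside-out adaptor genes, 1 fell, Skap1, at -1.02 (SE 0.27, adjusted p = 0.0193 by edgeR), an adaptor that helps to bring Rap1 to the membrane in T cells. A count of 1 in 13 is near the share of all genes. Skap1 ran from 152 over 189 to 207 CPM in deleted and from 175 over 385 to 613 CPM in control libraries, with overlapping groups, and the list median was -0.02.

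All 4 genes of proteins that restrain integrin activation fell, with a list median of -1.07. The share called lower was 8.52% of all genes and 23.8% of genes of at least 50 mean CPM, a class that holds 3 of the 4. Dok1, an adaptor that competes with talin for beta tails, was at 5.17 to 17.8 CPM in deleted and 18.6 to 36.1 CPM in control libraries. The groups did not overlap, a separation that 1.44% of all genes tested showed in that direction. Dok1 fell by 1.48 (SE 0.31, adjusted p = 0.00504 by edgeR). Sharpin, whose product binds alpha chain tails, fell by 1.15 (SE 0.27, adjusted p = 0.00918). Flna, which encodes the actin crosslinker filamin A, fell, at -0.996 (SE 0.30, adjusted p = 0.0331). Itgb1bp1, which encodes the beta1 tail binder ICAP-1, fell by 0.77 (SE 0.20, adjusted p = 0.0197 by edgeR). In the fit on genes of at least 50 mean CPM, 2 of the 3 measured there fell, Sharpin and Flna, and 0 of 4 passed once the receptor share was a covariate.

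Of 21 other integrin subunit genes 0 passed (median 0.14). By edgeR 1 was lower at an unadjusted p under 0.05. DESeq2 called 1 lower, beside 10.9% of all genes, and limma-voom called 0. The gene of smallest p was Itgae, which encodes the alphaE chain CD103, another partner of beta7; its log2 fold change was -0.68 (SE 0.23, adjusted p = 0.0605 by edgeR). Of 8 integrin ligand genes 1 fell: Icam1, the LFA-1 ligand gene, at 14.3 over 22.5 to 37.4 CPM in deleted and 25.5 over 71.7 to 92.0 CPM in control libraries. Of the deleted libraries 3 lay below the control range. It fell by 1.58 on the log2 scale (SE 0.27, adjusted p = 0.00113 by edgeR). The median of that list was 0.11. Of 16 adhesion complex and outside-in signalling genes 2 fell (list median -0.54), Vasp (-0.99, adjusted p = 0.0246 by edgeR) and Zyx (-0.82, adjusted p = 0.0403), whose products act on actin at adhesion sites. Counts of 1 in 8 and 2 in 16 are likewise near the share of all genes. Of 7 other leukocyte adhesion receptor genes, 6 of them at 50 mean CPM or more, where 23.8% of genes were called lower, 3 fell (list median -0.60): the co-stimulatory receptor gene Cd226 (-1.14), Cd2 (-1.03), whose product binds CD48, and the P-selectin ligand gene Selplg (-0.94). The fit on genes of at least 50 mean CPM alone, in which 9.38% of genes were called higher, turned some of these counts. There 3 of 7 exchange factor and adaptor genes rose, Rapgef4 (0.63), Rasgrp2 (0.72) and Crk (0.58), and 1 of 3 genes of activating proteins, Sipa1l1 (0.52). In 4 other lists 1 gene rose in that fit: Afdn (0.79) of 9 effectors and adaptors, Itgb3 (0.64) of 4 other subunits, Fn1 (0.72) of 2 ligands and Ptk2 (0.74) of 11 adhesion complex genes. Some of these genes were named after their values had been seen. Once the receptor share was a covariate, 0 of the 87 genes of these 8 lists passed edgeR's test, with 9 higher and 2 lower at an unadjusted p under 0.05. In the 9 libraries of similar share 0 passed, with 3 higher and 6 lower at an unadjusted p under 0.05. For counts at an unadjusted p, here and above, the share of all genes was not computed. Those counts therefore do not set these genes apart from all genes.

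**Figure D5:**
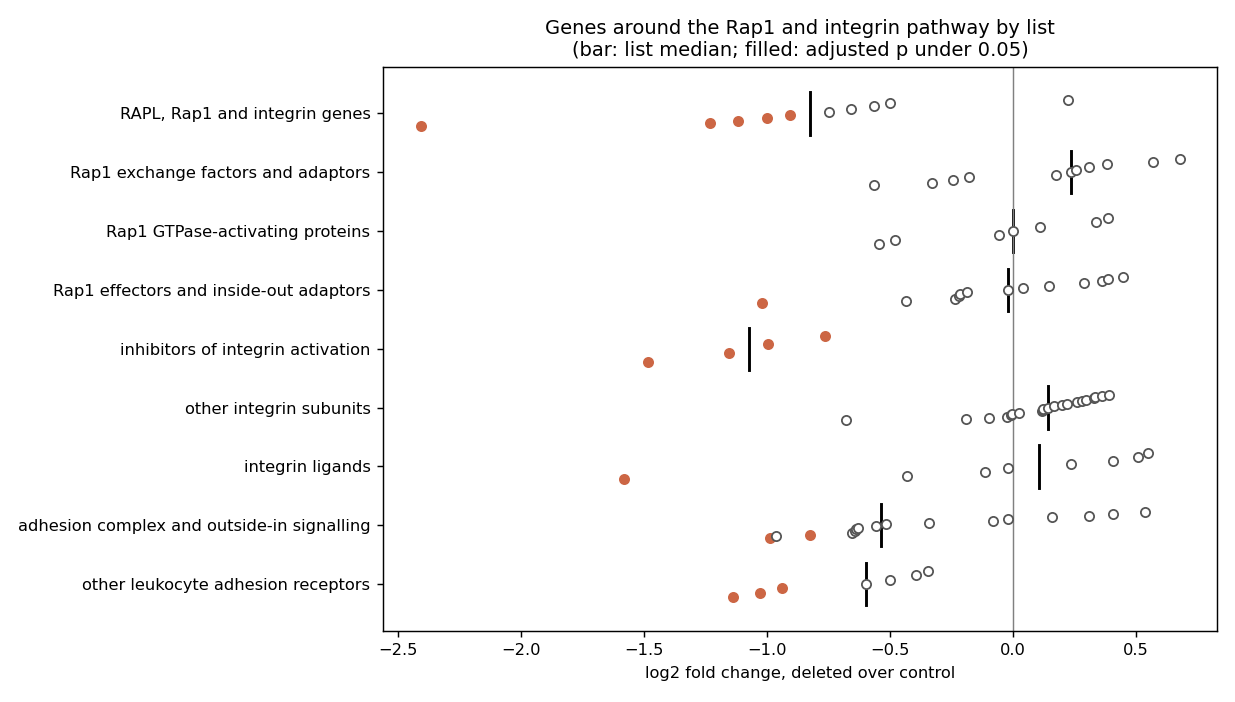
Log2 fold change of deleted over control (horizontal axis) for the 10 genes and for 8 lists of related genes, 1 point per gene, filled where the adjusted p was under 0.05, with a bar at the list median. Itgb1 (-2.41) is the lowest point of all, all 4 inhibitor genes are filled, and the exchange factor, activating protein and other subunit lists lie around 0 with no filled point.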

How the data were processed

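RNA of sorted CD4+YFP+ splenic cells was turned into complementary DNA with the SMART-Seq v4 kit, per the labels' protocols. What the authors deposited are raw counts of reads for each gene. The submitters' processing notes name DESeq2 1.26.0, edgeR 3.28, featureCounts 2.0.1 and, as builds, mm10 and GRCm38. The aligner, annotation and strandedness were not given in the sources used here. Per the file headers, the authors' deposited table holds a Mean and a Max column of log2 fold change, p-value and false discovery rate. It also holds columns headed Lima, Edge and Desk2. Only the mean log2 fold change is quoted here. The authors' deposited columns of mean counts, a signal per group, were not used.

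Counts of 26720 genes were filtered by filterByExpr and scaled by TMM (trimmed mean of M values). In R 4.3.3 the 13 libraries were fitted on genotype alone, and edgeR 4.0.16 gave quasi-likelihood F tests. P-values were adjusted by Benjamini-Hochberg over all genes tested, with 0.05 as threshold. Ratios used a prior count of 0.5 and exact permutation. The test was also run on simulated counts with the same spread setting for all genes and no group difference in receptor share. Its outcome is not given here and does not show how the test behaves on these data. Alternatives were upper quartile scaling, DESeq2 size factors, limma-voom 3.58.1 with sample weights, DESeq2 1.42.0, a filter of 10 CPM in 6 libraries or none, genes of at least 50 mean CPM alone or as the base of scaling, the log2 receptor share as a covariate, libraries of similar receptor share, the replicate number as a block and each library left out. The 10 genes, the lists and the tests were chosen with earlier results of these data known. Genes named are the 10, Stk3, Stk4, up to 4 genes of smallest p from each list and the T cell genes Cd3d, Cd3e, Cd3g and Cd4. Named outside that rule are cell type markers, genes that overlap the 10, and list genes called in a single alternative fit. Coordinates come from the RefSeq gene table of GRCm38, matched by gene number (93.6% of genes). Levels were not compared between genes, as no transcript lengths were used. Intervals by counting were not given, since reads are not independent molecules.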

Additional observations from a re-analysis of the deposited data

Results flagged for a closer look

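In 2 of 60 sets of 6 or 7 libraries examined, 1 library stood far from the rest of its group; chance gives about 3.0 such sets. Tln1 in deleted replicate 1 was at 469 CPM, against a group median of 231 CPM. Itgal in deleted replicate 7 was at 98.5 CPM, against a group median of 202 CPM. That library had the largest receptor share, 1.89%, and its part in the value was not tested.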

How the results depend on the processing

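Of the 10 genes, 5 were called lower over all genes. The count was 3 with DESeq2 size factors, with upper quartile scaling and with scaling by genes of at least 50 mean CPM. It was 1, Itgb1, with the receptor share as a covariate, in libraries of similar receptor share and with the replicate block. Under the block Itgal (-1.13, adjusted p = 0.0723 by edgeR) and Fermt3 (-0.98, adjusted p = 0.0818) kept folds near those without it. It was 3 to 6 with 1 library left out. The count of higher genes among the 10 was 1 with genes of at least 50 mean CPM alone, Rap1b, and 0 to 0 with 1 library left out. Once the receptor share was a covariate, the sign turned for Rassf5 (0.33), Rap1a (0.78), Itgb2 (0.0214), Itga4 (0.34) and Tln1 (0.18), and in libraries of similar receptor share for Rap1a (0.18); none of these passed the test. Over all genes, 400 were higher and 2050 lower. The counts were 761 and 1208 with upper quartile scaling, 882 and 699 with scaling by genes of at least 50 mean CPM, 54 and 56 with the covariate, and 38 and 101 in libraries of similar receptor share. DESeq2 called 710 higher and limma-voom 1174, and genes of at least 50 mean CPM alone gave 813 lower. With 1 library left out the counts were 167 to 860 higher and 1034 to 3245 lower. With the replicate number as a block, 121 genes were higher and 736 lower. The labels do not say whether the numbers pair the libraries. Deviations from the group mean in same-numbered libraries had correlations of -0.32 to 0.41, which do not decide this. For the ratios, 5 of 8 had the smallest p that 64 sign flips over 6 shared numbers can give (exact p = 0.0312), which became 0.05 after adjustment, so this block fit says little about them. The cause of these changes was not tested.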
